A study of Homo sapiens with 2 samples.

Results

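The proteins of the small nucleolar ribonucleoprotein particles (snoRNPs) and 2 abundant nucleolar proteins were followed in ribosome profiling libraries of HEK293T, a human embryonic kidney line. The genes were chosen by symbol, as the 10 protein-coding rows named FBL, NOP56, NOP58, SNU13, DKC1, NHP2, NOP10, GAR1, NCL and NPM1, out of 19994 protein-coding rows and 61554 rows in all. In ribosome profiling, nuclease digests all RNA except the stretches covered by ribosomes, and those footprints are sequenced and counted per gene. Both cultures were of wild-type genotype and received the plasmid for TetRS, a pyrrolysyl-tRNA synthetase variant, which also carries U6-driven cassettes of a tRNA with the anticodon CGA, in the presence of TetBu. The library called "with the reporter" came from cells that also received pEGFP-mCherry-T2A-EGFP-151TCG, a fluorescent reporter with a TCG codon in EGFP, and the library called "without the reporter" from cells that did not. Both were collected after 30 h of expression and 1 min in cycloheximide at 0.1 mg per mL. Since both cultures received the tRNA cassettes, the comparison is between cells with and without the reporter. The dose of the tRNA may still have differed, because the TetRS counts from its plasmid did, as given below. Each group had 1 library, so no test across replicates was possible, no p-value is given, and each difference is one between these libraries.

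Small nucleolar RNAs guide chemical modification of ribosomal RNA, and each class works as a particle with 4 core proteins. In C/D box particles, fibrillarin (FBL) is the methyltransferase, NOP56 and NOP58 are paralogous scaffold proteins, and SNU13 binds the kink-turn of the RNA. In H/ACA box particles, dyskerin (DKC1) is the pseudouridine synthase and NHP2, NOP10 and GAR1 are its partners, which telomerase shares. Nucleolin (NCL) and nucleophosmin (NPM1) are abundant nucleolar proteins with roles in ribosome assembly. Many snoRNAs are cut from introns, and some lie inside the genes of these proteins themselves.

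The libraries held 2519301 counts with the reporter and 3151403 without it, of which 13.7% and 9.77% fell on protein-coding genes. The reporter row had 271843 and 399 counts, in the direction of the labels, and TetRS had 30286 and 59723. The dose of the TetRS plasmid, and of the tRNA it carries, may thus have differed and cannot be told apart from the reporter. All 7 genes fixed as HEK293 genes had counts, with 182 summed counts with the reporter and 127 without it. Leukocyte markers had 5 and 20 counts over 6 genes, and fibroblast markers 17 and 55 over 6 genes, with 2 and 1 of the genes at 0 in both libraries. The most counted gene was NEFL among the HEK293 genes, with 155 summed counts, CORO1A among the leukocyte markers, with 15, and COL1A2 among the fibroblast markers, with 25. The summed counts of the markers of these other cell types were thus higher without the reporter, but small. Their part in the results was not tested.

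The 10 genes together were slightly higher with the reporter than the typical coding gene, and nucleolin supplied most of that difference. Their counts summed to 1615 with the reporter and 1144 without it, or 0.466% of coding counts (exact 95% interval 0.444 to 0.490%) against 0.372% (0.351 to 0.394%). Ratios below are log2 values of counts with the reporter over counts without it, minus the median of the 1060 protein-coding genes whose counts in both libraries add up to 100 or more. This relative log2 ratio does not depend on how the libraries are scaled, and its interval is an exact Clopper-Pearson interval at 95% that covers counting error only. Reads copied by PCR are not independent molecules, so the intervals may be too narrow. For the 10 genes pooled it was 0.25 (0.14 to 0.36). Without NCL it was 0.10 (-0.04 to 0.25), an interval that holds 0. Fewer ribosomes per mRNA and less mRNA cannot be told apart without a matched RNA library, nor can fewer cells of a type and less RNA per cell.

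In the main set were 7 of the 10 genes; NOP10, NHP2 and GAR1 had fewer than 100 summed counts. Of the 7, 5 lay above the coding median and 2 below it, with a median of 0.34 against 0 over the 1060 genes, where 530 lay above. The interval lay wholly above the coding median for 3 of the 7 (NCL, NOP56 and DKC1), where 17.8% of the 1060 coding genes did so. With the library of more total counts thinned to the total of the other, in 1 random draw, NOP56 lost this call (0.29, -0.03 to 0.63). FBL gained it (0.44, with a lower bound just above 0). That library, without the reporter, already had fewer coding counts (307768 against 346240), so thinning did not equalize the depth of coding genes. The interval lay wholly below for none of the 7, where 16.1% of the 1060 genes did so. At least 2-fold from the coding median with an interval that excluded 0 were 1.79% of the 1060 genes in the higher direction and 1.32% in the lower. None of the 7 was so. With only 7 genes, none called cannot be told from these shares. The 3 genes with fewer counts, outside the set these shares describe, met neither rule. The middle 80% of the 1060 genes spread from -0.60 to 0.59, and of the 7 only DKC1 lay just outside that range. This depended on the counts of the genes compared. Over the 668 genes with 100 to 200 summed counts, the middle 80% spread from -0.62 to 0.62. DKC1, with 157 summed counts and a ratio of 0.61, lay inside it. Over the 80 genes in a higher range of summed counts that holds NCL, with 1109, it spread from -0.45 to 0.45. NCL, at 0.48, lay just outside that range.

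**Figure D1:**
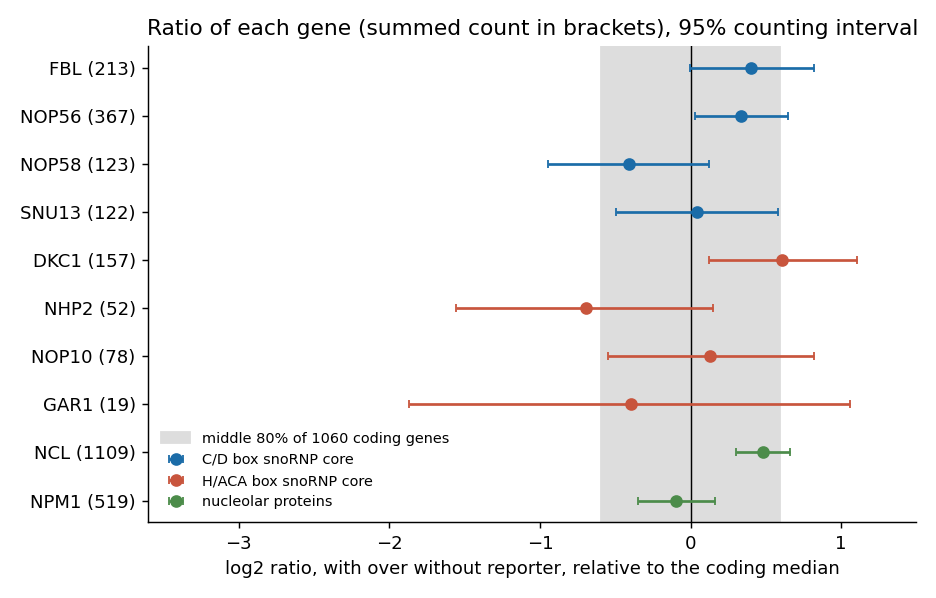
Relative log2 ratio of each gene (x axis, with over without the reporter) with its 95% counting interval; the grey band is the middle 80% of 1060 coding genes, from -0.60 to 0.59, and summed counts are in brackets. NCL, NOP56 and DKC1 have intervals above 0, while NHP2 and GAR1, with 52 and 19 summed counts, have the widest intervals.

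Among the C/D box proteins, fibrillarin and NOP56 had more counts with the reporter and NOP58 had fewer. FBL (ENSG00000105202, chromosome 19, 39834458 to 39846379, minus strand) had 130 counts where the reporter was present and 83 where it was not. Its relative log2 ratio was 0.40 (-0.01 to 0.82), so the lower bound fell just short of 0. NOP56 (ENSG00000101361, chromosome 20, 2652593 to 2658393) had 220 and 147 counts, and its ratio of 0.34 (0.03 to 0.65) corresponds to 1.26-fold. Its paralog NOP58 (ENSG00000055044, chromosome 2, 202265736 to 202303661) had 58 and 65 counts and a ratio of -0.41 (-0.94 to 0.12). The difference between the paralogs, NOP56 minus NOP58, was 0.75 on the log2 scale (0.12 to 1.37). FBL minus NOP58 was 0.81 (0.13 to 1.49), so NOP58 stood below these 2 of its 3 partners at the 95% level. SNU13 (ENSG00000100138, chromosome 22, 41673933 to 41690504), which also binds U4 snRNA in the spliceosome, had 67 and 55 counts and a ratio of 0.04 (-0.50 to 0.58). NOP58 minus SNU13 was -0.45 (-1.22 to 0.32), an interval that holds 0. Pooled, the C/D core had 475 and 350 counts and a ratio of 0.20 (-0.01 to 0.40).

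Among the H/ACA box proteins, dyskerin was the only one with an interval above the coding median. DKC1 (ENSG00000130826, chromosome X, 154762742 to 154777689) had 101 and 56 counts, the highest ratio of the 10 genes at 0.61 (0.12 to 1.10), or 1.52-fold. NOP10 (ENSG00000182117, chromosome 15, 34341719 to 34343136), the smallest subunit, had 44 and 34 counts and a ratio of 0.13 (-0.55 to 0.82). NHP2 (ENSG00000145912, chromosome 5, 178149463 to 178153894), which belongs to the same protein family as SNU13, had 22 and 30 counts and the lowest ratio, -0.69 (-1.56 to 0.15). Its locus overlaps RMND5B on the opposite strand by 1106 nt, a gene with 18 and 32 counts, and since the sources used here do not give the strand setting of the counting, reads of the shared stretch cannot be told apart. GAR1 (ENSG00000109534, chromosome 4, 109815510 to 109824740), the glycine- and arginine-rich subunit, had only 9 and 10 counts, too few at this depth to detect a difference (-0.40, -1.87 to 1.06). DKC1 minus NHP2 was 1.30 (0.31 to 2.30), and with the level divided by the 45 pairs its interval held 0 (-0.30 to 2.94). Pooled, the H/ACA core had 176 and 130 counts and a ratio of 0.19 (-0.14 to 0.53). DKC1 carried that value, since the other 3 together were at -0.22 (-0.71 to 0.26).

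Nucleolin and nucleophosmin differed from each other. NCL (ENSG00000115053, chromosome 2, 231453531 to 231483641, minus strand) was the most counted of the 10 genes, at 691 with the reporter and 418 in the other library. Its ratio was 0.48 (0.30 to 0.66), or 1.40-fold (1.23 to 1.58). NPM1 (ENSG00000181163, chromosome 5, 171387116 to 171411810) had 273 and 246 counts and a ratio of -0.09 (-0.35 to 0.16). NCL minus NPM1 was 0.57 (0.26 to 0.89). Among all 45 pairs of the 10 genes, 12 had a 95% interval of the difference that excluded 0. With the level divided by the 45 pairs, 1 pair did so, NCL and NPM1 (0.06 to 1.09), though not once pseudogene rows are added to NPM1, as given below. Pooled, the pair was at 0.29 (0.15 to 0.44), a value that rests on NCL.

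The particles as wholes were not told apart by these counts. C/D minus H/ACA was 0.00 (-0.39 to 0.40), C/D minus the nucleolar pair -0.10 (-0.35 to 0.15), and H/ACA minus the nucleolar pair -0.10 (-0.47 to 0.27). Differences of up to 0.4 in either direction between C/D and H/ACA thus lie within counting error.

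NPM1 has many processed pseudogenes, and the counting could have divided its reads among them. Of 49 rows named as its pseudogenes, 21 had a count, in all 82 with the reporter and 42 without it. NPM1P49 (chromosome X, 47438736 to 47439774) held most of these, with 46 and 30 counts and a ratio of 0.37 (-0.32 to 1.09). The next were NPM1P38 with 6 and 0, NPM1P27 with 5 and 1, NPM1P39 with 5 and 0 and NPM1P41 with 4 and 1 counts. With all its pseudogene rows added, NPM1 had 355 and 288 counts and a ratio of 0.06 (-0.17 to 0.29), which changes the sign of its value but keeps 0 inside the interval. NCL minus this sum was 0.42 (0.13 to 0.71), and with the level divided by the 45 pairs its interval held 0 (-0.06 to 0.90). NOP56, NHP2 and NCL have 3, 2 and 2 such rows, all at 0 in both libraries.

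Levels of different genes can be compared only per length, on the scale of the deposited RPKM (counts scaled by the listed gene length and by the size of the library). NOP10 was highest in both libraries, at 30.2 with the reporter (exact Poisson interval 21.9 to 40.5) and 24.3 without it (16.8 to 33.9). NCL followed at 27.0 and 17.0, then FBL at 21.2 and 14.1, NOP56 at 15.5 and 10.7 and NPM1 at 11.4 and 10.7. These 5 genes kept the same order in both libraries. SNU13 was at 7.97 and 6.80, NOP58 at 6.17 and 7.19 and NHP2 at 5.34 and 7.57. Those 3 lay close together, and their intervals overlapped in each library. DKC1 was at 3.82 and 2.20, and GAR1 was lowest at 1.59 and 1.84. Between neighbours in the order with the reporter, intervals were apart for FBL and NOP56, for NOP56 and NPM1, and for DKC1 and GAR1. Without the reporter they were apart only for SNU13 and DKC1.

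Genes of 1 particle thus differed in deposited RPKM, which need not equal footprint density over the coding sequence. Differences per coding length were not tested. NOP56 had 2.51 times the RPKM of NOP58 with the reporter (1.87 to 3.41) and 1.496 times without it (1.11 to 2.04). FBL had 1.37 times the RPKM of NOP56 with the reporter (1.09 to 1.71) and 1.31 times without it (0.99 to 1.72). NOP10 exceeded DKC1 by 7.90 times with the reporter (5.42 to 11.4) and 11.01 times without it (6.97 to 17.2). The RPKM depends on the listed length, which the files do not define. It was 9198 nt for DKC1 and 507 nt for NOP10, and for NCL 8919 nt, in a locus of 30111 nt by the files and 10954 nt by RefSeq.

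**Figure D2:**
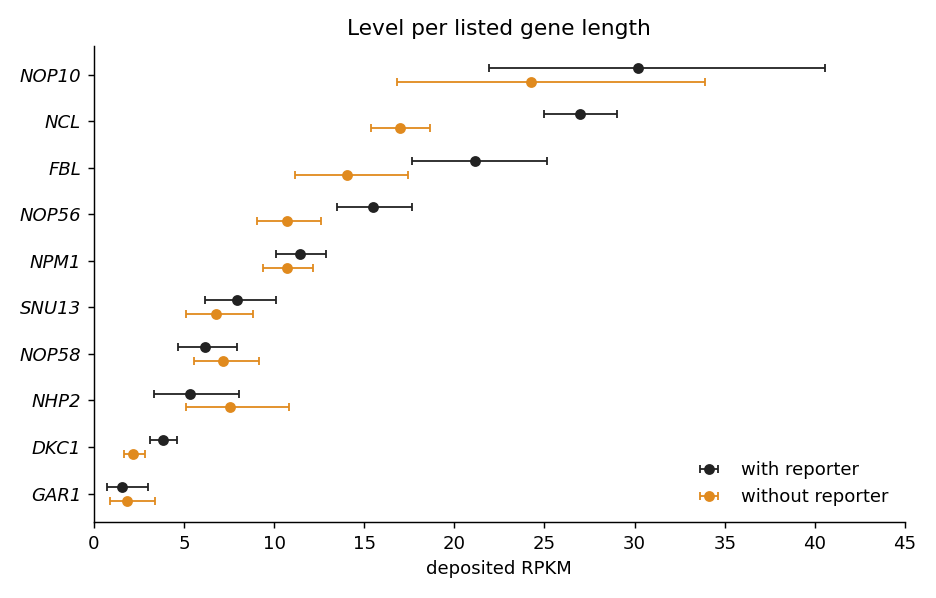
Deposited RPKM of the 10 genes (x axis, linear), with exact Poisson 95% intervals of their counts, ordered by the library with the reporter (dark); orange points are the library without it. NOP10 is highest and GAR1 lowest in both libraries, and DKC1 is at 3.82 and 2.20.

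The genes of these proteins are also a source of snoRNAs. By the coordinates of the files, 17 small RNA genes lie inside 5 of the 10 loci, 14 of them snoRNA genes. NOP56 holds 5 snoRNA genes (SNORD110, SNORA51, SNORD86, SNORD56 and SNORD57), NOP58 holds 4, NCL holds 3 and DKC1 holds 2. Only 4 of the 17 had any count, and all 4 were C/D box snoRNAs in NOP58 or NCL. The other 13, among them 10 snoRNA genes, were listed at 0 in both libraries.

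Inside NOP58, the snoRNAs had a higher ratio than the host. SNORD11 (chromosome 2, 202293051 to 202293134) had 351 and 245 counts, a ratio of 0.27 (0.03 to 0.52). SNORD70 (202276431 to 202276518) had 302 and 209 counts, at 0.29 (0.03 to 0.55), and SNORD11B (202291332 to 202291421) had 87 and 41, at 0.84 (0.29 to 1.41). All 3 intervals lay above the coding median, while the value of NOP58 itself was below it. This was common among snoRNA rows: of 69 with at least 100 summed counts, 36 (52.2%) had an interval above the coding median and 13 (18.8%) below it, with a median of 0.31. Together the 3 had 740 and 495 counts, and their ratio exceeded that of NOP58 by 0.74 (0.18 to 1.31). SNORD70B, the other snoRNA gene there, was at 0.

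Inside NCL the direction was the opposite. SNORD82 (chromosome 2, 231460371 to 231460440, minus strand) had 1648 counts in each library, which gives a ratio of -0.24 (-0.34 to -0.14) relative to the coding median. SNORD82 minus NCL was -0.73 (-0.93 to -0.52). SNORD20 and SNORA75, also inside NCL, were at 0. Counts of a snoRNA gene are not ribosome footprints of a coding sequence, so the pairs show only that host and snoRNA rows moved differently.

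**Figure D3:**
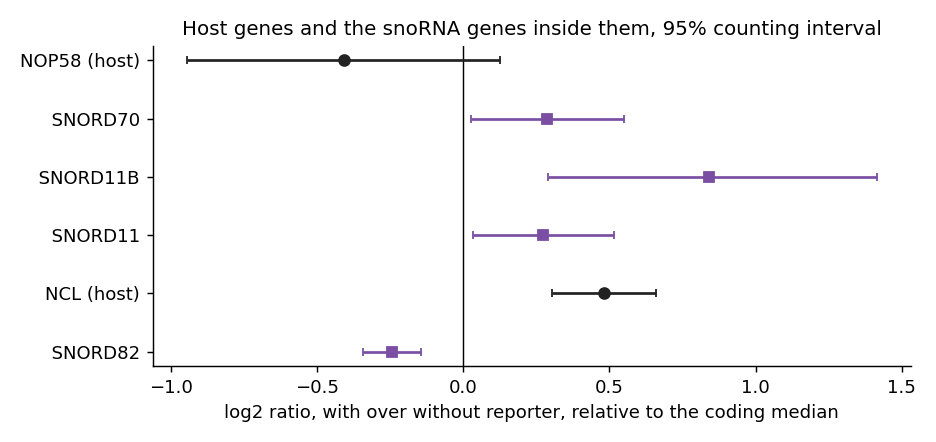
Relative log2 ratio (x axis, with over without the reporter) of NOP58 and NCL (circles) and of the 4 snoRNA genes with counts inside them (squares), with 95% counting intervals. The 3 snoRNAs in NOP58 lie above 0 and their host below it, while SNORD82 lies below 0 and its host NCL above it.

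The rows at 0 belonged mostly to the 2 hosts whose listed length fills most of their locus. That share was 85.3% for NOP56 and 61.5% for DKC1, against 8.63% for NOP58 and 29.6% for NCL. The share of NCL depends on the annotation, since its locus is 30111 nt by the files and 10954 nt by RefSeq. Its listed length of 8919 nt would be most of the RefSeq locus, yet SNORD82 inside it had 1648 counts in each library. Over all coding genes with at least 20 summed counts, 205 snoRNA genes lay inside exactly 1 such gene on its strand. Where the listed length was under 20% of the host locus, 36 of 77 snoRNA genes were at 0 in both libraries (46.8%, exact interval 35.3 to 58.5%). From 20 to 40% it was 14 of 39 (35.9%, 21.2 to 52.8%), from 40 to 60% 28 of 37 (75.7%, 58.8 to 88.2%) and above that 42 of 52 (80.8%, 67.5 to 90.4%). Without the loci described here the last value was 35 of 45 (77.8%, 62.9 to 88.8%). SnoRNA genes of 1 host are not independent, so these intervals are too narrow. The snoRNAs of NOP56 and DKC1 are therefore listed at 0 in a setting where most snoRNA rows were, and their 0 gives no level of these snoRNAs. The sources used here do not say how reads that match both a snoRNA and its host were assigned, so whether the host counts of NOP56 and DKC1 include any was not tested.

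**Figure D4:**
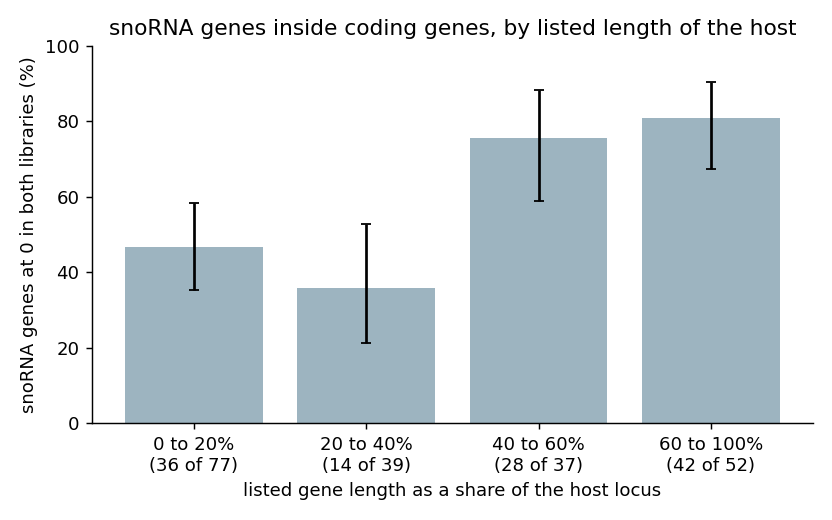
Share of snoRNA genes at 0 counts in both libraries (y axis, percent, with exact binomial 95% intervals) by the listed length of the host gene as a share of its locus (x axis). The share at 0 is 46.8% and 35.9% in the lower bins and 75.7% and 80.8% in the upper bins; NOP56 and DKC1 fall in the last bin.

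DKC1, whose protein acts with H/ACA box RNAs, itself hosts such RNAs, and the end of 1 of them can be read in a microRNA entry. MIR664B (chrX:154768596-154768656, plus strand, GRCh38.p14, RefSeq) lies inside SNORA36A (chromosome X, 154768528 to 154768659), and both were listed at 0. The hairpin is shown because it ends on the ACA box that names the class, in capitals, followed in SNORA36A by 3 more bases. In the mature arms the capitals mark the seed, bases 2 to 8.
MIR664B hairpin: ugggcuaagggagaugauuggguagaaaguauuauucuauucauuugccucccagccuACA
hsa-miR-664b-5p: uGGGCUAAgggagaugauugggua
hsa-miR-664b-3p: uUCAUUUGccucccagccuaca

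Some mRNAs of the translation machinery begin with a C followed by a run of pyrimidines, the 5′ terminal oligopyrimidine (TOP) motif, through which growth signals control their translation. Of the 10 genes, 8 matched the RefSeq table of start sites on GRCh38.p14, with 10 windows; SNU13 and NOP58 have no entry. A C at the annotated first base followed by at least 4 more pyrimidines was found in FBL and in 1 of 2 starts of NPM1, and in 4.07% of all 35116 windows. The 15 bases before and the 15 from the first base are shown for these and for the 3 genes whose intervals lay above the coding median, with the pyrimidine run from the first base in capitals.
FBL, chr19:39846365-39846394, minus strand: ccgcgcgcctgcgctCTTTTCCacgtgcga
NPM1, chr5:171387834-171387863, plus strand: cggggagcctgcgtcCTTTCCCTggtgtga
NOP56, chr20:2652617-2652646, plus strand: gagcgcgctagccgcattgcgagccgaacc
DKC1, chrX:154762849-154762878, plus strand: gggcagtgcgcgggtgggtgggtcctagca
NCL, chr2:231464470-231464499, minus strand: tcagtctttcgcctcagtctcgagctctcg

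Genes with and without the motif at the annotated base lay on both sides of the coding median. FBL and NPM1, which have it, were at 0.40 and -0.09. Of the 6 others with a window, NOP56, DKC1, NCL and NOP10 lay above the median and NHP2 and GAR1 below it. Over the other main-set genes with a window, 71 of 125 with the motif lay above the coding median (median 0.09) and 371 of 750 without it (median -0.01). The letters CACGTG, the core of the E-box bound by MYC and its relatives and the same on both strands, were in the 300-base windows of FBL, NOP10 and GAR1, and in 7.26% of all windows. In NOP10 they stood at bases 11 and 170 before the start, in FBL at base 7 after it, where the pyrimidine run ends, and in GAR1 at base 32 of its second start.

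Genes of the wider machinery of snoRNP and ribosome assembly lay on both sides of the coding median. Of 133 genes in 7 lists, 30 were measured, with 13 above and 17 below the coding median and a median of -0.15, against 0 over all 1060 genes. Their interval lay above the coding median in 3 and below it in 8, where 17.8% and 16.1% of the 1060 genes did so. None of the 30 was past 2-fold, where 1.79% of the 1060 genes were in the higher direction and 1.32% in the lower. At a count minimum of 20, 118 were measured, with 63 above (53.4%) and a median of 0.05, so the sign of the median depends on the minimum. The lists and the 10 genes were not tested against each other.

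The 2 measured factors that assemble the particles had wide intervals that held the coding median. The AAA+ ATPases RUVBL1, with 82 and 57 counts, and RUVBL2, with 113 and 86, which load core proteins as part of the R2TP complex, were at 0.28 (-0.22 to 0.79) and 0.15 (-0.27 to 0.57). The 8 other assembly factors had too few counts, and all 10 pooled had 325 and 286 counts (-0.06, -0.29 to 0.17). PRPF3, a protein of the U4 particle to which SNU13 also belongs, was at -0.35 (-0.92 to 0.22) and was the only measured gene of 5. The telomerase and Cajal body proteins TERT, WRAP53 and COIL had 56 and 37 counts together (0.35, -0.27 to 0.99).

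Factors of both ribosomal subunits lay on either side of the median. In the small subunit processome and 40S maturation, 4 of 8 measured genes lay above it, from NOB1, the nuclease that forms the end of 18S rRNA, at 0.61 (0.10 to 1.13; 92 and 51 counts) to WDR3 at -0.85 (-1.47 to -0.25; 40 and 61 counts). Among 60S assembly factors it was 7 of 15, from EBNA1BP2 at 0.63 (0.17 to 1.09; 117 and 64 counts) to RRP1B at -0.59 (-1.001 to -0.18; 92 and 117 counts). Their pooled ratios were 0.00 (-0.11 to 0.10) and -0.08 (-0.17 to 0.01). NOB1 and EBNA1BP2 were thus as high as DKC1, while the lowest measured genes were below NOP58. Below the count minimum, genes of both lists were past 2-fold with intervals that excluded 0. In the 40S list, WDR36, with 12 and 46 counts, was at -2.18 (-3.24 to -1.24). UTP15, with 8 and 25, was at -1.89 (-3.25 to -0.69). In the 60S list, NSA2, with 17 and 3 counts, was at 2.26 (0.47 to 4.67). PPAN, with 18 and 5, was at 1.60 (0.12 to 3.39).

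Both measured genes of the list for RNA polymerase I, the enzyme that transcribes rRNA, lay below the coding median. The other genes of the list, pooled, had an interval that held 0. RRN3, the initiation factor that growth signals control, had 45 and 61 counts (-0.68, -1.27 to -0.10), and TAF1D had 128 and 145 (-0.42, -0.78 to -0.07). The 16 genes pooled had 516 and 505 counts and a ratio of -0.21 (-0.39 to -0.03). Without RRN3 and TAF1D the other 14 had 343 and 299 counts (-0.05, -0.27 to 0.18), an interval that also holds the -0.21 of the whole list. Among the 14, POLR1E, with 17 and 39 counts, was at -1.44 (-2.36 to -0.59). At a count minimum of 20, 5 of 11 genes of the list lay above the coding median. Of the other nucleolar proteins, NOLC1, a partner of both classes of particle, had 264 and 250 counts (-0.17, -0.42 to 0.09), and the proliferation antigen MKI67 had 139 and 154 (-0.39, -0.73 to -0.05). That list pooled was at -0.14 (-0.29 to 0.02).

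With 2 libraries, likeness of pattern is only closeness of 1 ratio. Among other coding genes with at least 1000 summed counts, the 3 nearest to the pooled value of 0.25 were the ribosomal protein genes RPS25 at 0.27, RPS6 at 0.22 and RPL7A at 0.22. RPS25 had 672 and 470 counts, RPS6 1150 and 832, and RPL7A 1289 and 936.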

How the data were processed

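Per the submitters' processing notes, TopHat2 2.0.12, HTSeq 0.9.1 and the builds GRCh37 and hg19 are listed, with no role or order. The authors deposited whole-number counts per gene and, for the same rows, RPKM. The coordinates were those of GRCh38, since all 10 genes overlapped their RefSeq GRCh38.p14 locus, as did 19077 of 19080 coding symbols found there. Each deposited RPKM equalled the count per listed length and per 1 library size. Groups came from the sample titles. With 1 library per group, no edgeR or DESeq2 test was possible. edgeR 4.0.16 (TMM) and DESeq2 1.42.0 in R 4.3.3 gave alternative scalings only. Other alternatives were count minimums, fold thresholds, RPKM with 0.1 added, thinning and an assumed variation between libraries. Ratios, intervals, pair differences (exact conditional odds ratios) and figures used Python 3.11.15, numpy 2.4.6, scipy 1.17.1, pandas 2.3.3 and matplotlib 3.10.9, and were tested on simulated data. Pooled ratios take the coding median as fixed.

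The members and lists were chosen with earlier results of these data known. Named were all 10 genes, the highest and lowest measured gene of each list, small RNA genes inside a locus with at least 20 counts, pseudogenes with at least 5, and the 3 nearest genes. Small RNA genes at 0, RMND5B, the bins of host length, the snoRNA rows as a class, NPM1 with its pseudogenes and the RNA polymerase I list without its measured genes were added after the values were seen. So were the list genes past 2-fold below the count minimum whose interval excluded 0, and the ranges by summed count.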

Additional observations from a re-analysis of the deposited data

How the results depend on the processing

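Counting error only bounds these values. With an assumed coefficient of variation between libraries of 0.1, 1 gene (NCL) kept an interval above the coding median in place of 3, and with 0.2 none did. Without centring and scaled by total counts, 7 genes had an interval above 0 and 2 were past 2-fold, DKC1 at 1.17 and NCL at 1.05, since that scaling moved every gene by 0.57. TMM moved every gene by 0.11, DESeq2 by 0.19 and the summed coding counts by 0.07. FBL passed 0 under these and at lower count minimums. At a fold threshold of 1.5, 1 gene was called higher, and with the interval alone 3 were, in place of 0 at 2-fold. Of 130 values of single genes under the alternatives, 122 stayed inside the main counting interval. These are not 130 separate checks. The assumed variation changes only the interval, so its values stay inside by construction, and each scaling or count minimum shifts every gene by the same amount. With the library of more total counts thinned in 1 random draw, 3 genes again had an interval above 0, with FBL in place of NOP56. The H/ACA pool without DKC1 was at -0.22, and the nucleolar pair without NCL, which also is its only host of a counted small RNA, turned to -0.094. The pool of all 10 was at 0.10 without NCL, and the median of the 10 genes was 0.084. A trend on listed gene length, removed as an alternative chosen after seeing the data, left the same 3 genes above. No paired analysis was possible because each group had 1 library, and none could be left out.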
